A study of Danio rerio with 18 samples.

Results

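RNA of the zebrafish embryo shortly after fertilization, which the mother laid down in the egg, was compared with RNA of the embryo of 1 day, whose own genome had taken over transcription. The comparison used all 6 arrays of 24 hours post fertilization (hpf) against all 6 arrays of 1 hpf, that is 12 of the 18 Affymetrix zebrafish arrays of the study, and every probe set that is not an Affymetrix control. A probe set is a group of short probes for the same transcript. The study asked about the microRNA mir-34: wild-type embryos had received, at the 1 to 2 cell stage, a locked nucleic acid (LNA) oligonucleotide against mir-34 or a mock LNA, and each of the 6 combinations of injection and age (1, 7 or 24 hpf) had 3 arrays. Each age here therefore held 3 mock LNA and 3 anti-mir-34 LNA arrays, so every embryo compared had been injected, and the injection was a covariate of the test. The labels call the 1 hpf samples a maternal and the 24 hpf samples a zygotic set. The arrays of a group are labelled as biological replicates. The sources used here do not say how many embryos went into each or whether clutches differed, so the p-values measure the spread between these samples. The chorion had been taken off the embryos of 7 and 24 hpf, a step not stated for 1 hpf, and any effect of that step cannot be told apart from age.

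A zebrafish egg is loaded during oogenesis with messenger RNA and protein, and the first cell divisions run without transcription of the embryo's genome. Maternal RNAs are translated, and many are later removed by deadenylation and decay, while zygotic genome activation, driven in zebrafish by the transcription factors Nanog, Pou5f3 and Sox19b, starts new transcription. A 24 hpf embryo has a beating heart, twitching muscle, circulating blood cells, a regionalised brain, an eye with a lens, an epidermis and a yolk enclosed by a syncytial layer.

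Levels are the deposited log2 values, of which the lowest was -3.32, and array medians lay between 3.67 and 3.68. The 2 of the 18 arrays of the series with no missing value held identical sorted values. A difference is therefore read relative to the other probe sets and says nothing of the total RNA in an embryo. Without detection calls, a level near or below the array median may be background, and a log2 difference that starts or ends there has no exact size. For some such genes the difference after adding 16 to every signal is given as well. The 12 arrays matched their age labels by marker lists. The lists were written with earlier results of these data known, so this match is no independent check of the labels. The median level of 24 egg coat and oocyte genes was 6.73 to 7.46 on the 1 hpf arrays and 0.35 to 3.12 on the 24 hpf arrays. That of 41 skeletal muscle genes was 1.75 to 2.38 and 8.85 to 9.13. The egg coat median of 3.12 belonged to replicate 2 of the mock LNA at 24 hpf, which stood apart from the other arrays of its age in maternal transcripts, as described beside the results it touches. The Affymetrix probe sets for the 3′ and 5′ ends of the gene annotated as gapdhs differed by -0.37 to 0.19 at 1 hpf and by 0.99 to 1.77 at 24 hpf (3′ minus 5′), but the 5′ level was 3.56 to 4.21 at 1 hpf, close to the array median, and 6.23 to 6.99 at 24 hpf. The part of RNA integrity in the age differences was not tested.

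Most of what the arrays measured differed between the ages. Of 15502 probe sets, 10293 (66.4%) were called at an adjusted p under 0.05 (limma, Benjamini-Hochberg over all probe sets), 4742 higher and 5551 lower at 24 hpf. Of the called probe sets, 8744 (85.0%) differed by more than 2-fold and 1659 by more than 16-fold, of which 1066 were higher and 593 lower at 24 hpf. The 6 levels of one age lay entirely above those of the other for 7524 probe sets, 48.5% of those tested. With 1 probe set standing for each of 8793 named genes, 2651 genes (30.1%) were higher, 3637 (41.4%) were lower and 2505 were not called, and 267 (3.04%) met a test of equality described further on. Of 2433 genes with means under 4 at both ages, 1091 were called, and such calls may rest on background. The median difference of all genes was -0.36. It was -0.09 when each array was centred on the bacterial hybridization controls, so a small difference of either sign depends on the scaling. Centred in this way, 4652 probe sets were higher and 3872 lower, so which direction held more calls depends on the scaling too. The shares of all genes used below are those of the deposited scale. The differences below are read beside these medians, and the counts of each list beside 30.1% higher and 41.4% lower over all genes.

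**Figure D1:**
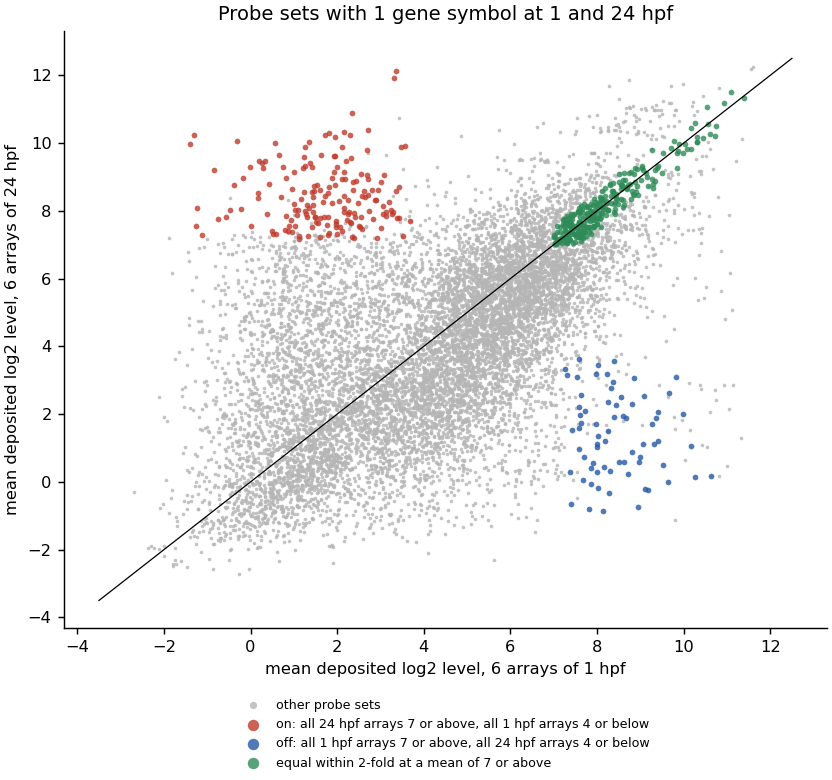
Mean deposited log2 level of each probe set with 1 gene symbol at 1 hpf (x axis) and 24 hpf (y axis), 6 arrays each, with the line of equal levels. Red marks probe sets with all 24 hpf arrays at 7 or above and all 1 hpf arrays at 4 or below, and blue the opposite. Green marks those equal within 2-fold at a mean of 7 or above. The colours are set by these same levels, so their fields are separate by definition.

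The egg's own transcripts made up the lower end. All but 1 of 24 genes for the egg coat and oocyte fell, with a median difference of -6.01 (-2.82 with 16 added), against -0.36 for all genes. btg4, an adaptor for messenger RNA deadenylation known from mouse oocytes, lay between 10.50 and 11.03 (median 10.87) at 1 hpf and between -0.996 and 5.31 (median -0.88) at 24 hpf. At 24 hpf, 5 of the 6 arrays lay under 0. The difference was -10.66 ± 0.79 (SE), or -6.49 with 16 added, at an adjusted p of 6.10e-09. zar1l, a relative of the zygote arrest gene of oocytes, lay between 10.02 and 11.01 (median 10.76) at 1 hpf and between -1.37 and 3.97 (median -0.42) at 24 hpf. Its difference was -10.46 ± 0.65 (SE) with an adjusted p of 8.75e-10. h1m, the maternal linker histone, lay between 10.62 and 11.29 (median 11.03) at 1 hpf and between -1.38 and 5.62 (median -0.36) at 24 hpf. The difference was -10.54 ± 0.80 (SE), with an adjusted p of 8.64e-09. buc, which encodes Bucky ball, the organiser of the oocyte's Balbiani body and of germ plasm, differed by -10.13 ± 0.69 (SE), and mos, the kinase that holds the egg in meiosis, by -8.55 ± 0.54 (SE). Both separated the ages completely, which their selection required. The 12 largest falls, buc and mos among them, were picked only from called genes whose ages do not overlap. Of the zona pellucida genes, which build the egg envelope, zp3.1 differed by -8.06, zp3c by -7.56, zp3f.1 by -7.02 and zp3b by -6.05. The exception in the list was fetub, a fetuin family gene, which rose by 3.64 ± 0.42 (SE) and had a mean of 7.83 at 7 hpf.

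Among the 12 genes with the largest fall were also the claudin cldnd (-10.03), the autophagy gene map1lc3c (-8.28), the oogenesis-related gene org (-8.35) and the cyclins ccna1 (-9.52) and ccnp (-7.99). The claudin cldng (-8.88) was another, but its other probe sets rose by 5.99 to 7.12. In all 12, replicate 2 of the mock LNA held the highest of the 24 hpf levels, between 3.71 and 6.98, while the other 5 arrays lay between -2.82 and 3.13. Without that array the 12 differences ranged from -11.68 to -8.56, and all 12 stayed called. They were larger than with it, which follows from leaving out the highest 24 hpf level and is no check of the falls. Whole embryos were measured, so fewer cells of a type and less RNA per cell cannot be told apart for any gene here.

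Of 18 germ plasm and piRNA genes, which mark and protect the future germ cells, 16 fell and 1 rose, with a median difference of -4.93. The array medians of the list were 5.94 to 6.69 at 1 hpf and 1.06 to 2.32 at 24 hpf. dazl, an RNA-binding protein of germ cells, lay between 7.00 and 8.11 (median 7.73) at 1 hpf and between 1.20 and 2.36 (median 1.77) at 24 hpf. The ages lay far apart, and the mean at 7 hpf, 4.99, lay between them. Its difference was -5.89 ± 0.25 (SE) with an adjusted p of 1.60e-11. The piRNA pathway genes tdrd5 (-6.66), asz1 (-6.47) and piwil2 (-6.35) fell as well. nanos1 rose by 3.56 ± 0.62 (SE) from a level under the array median.

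**Figure D2:**
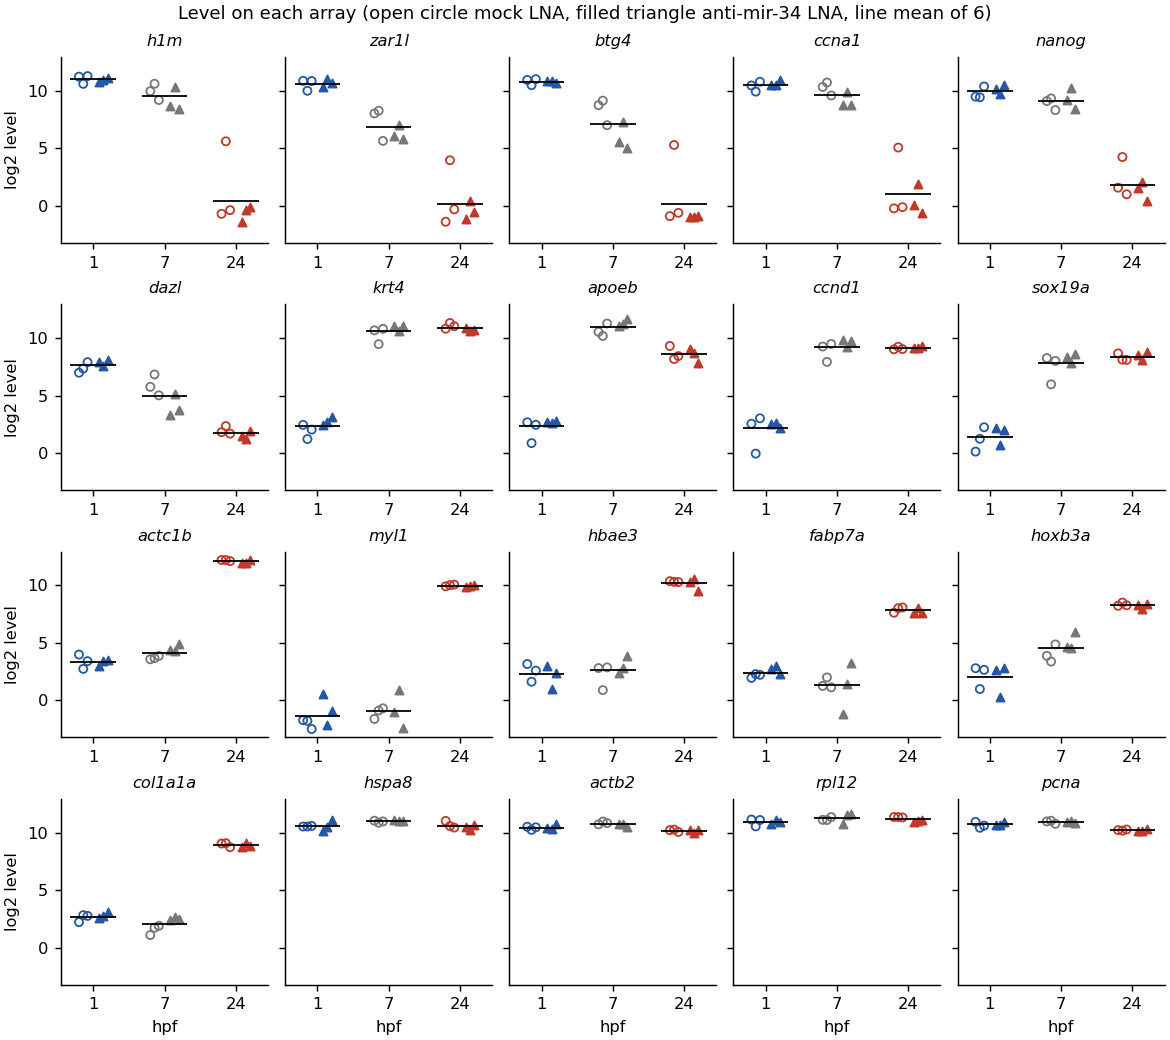
Deposited log2 level (y axis) of 20 genes on each array at 1, 7 and 24 hpf (x axis), with mock LNA as open circles, anti-mir-34 LNA as filled triangles and the mean of 6 arrays as a line. The upper 6 genes fall from 1 to 24 hpf, the next 10 rise at different times, and the last 4 stay within 2-fold.

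The machinery that drives meiosis and the rapid early cell cycles fell, with a smaller median. Of 31 such genes, 21 (67.7%) fell, 3 (9.68%) rose and 7 were not called, against 41.4% lower and 30.1% higher over all genes. The median difference was -1.63, and 6 were equal within 2-fold. ccna1, the cyclin A of the germ line and early embryo, lay between 9.95 and 10.99 (median 10.52) at 1 hpf and between -0.62 and 5.08 (median -0.01) at 24 hpf. At 7 hpf it had a mean of 9.68 and lay between 8.74 and 10.73, partly below every 1 hpf level but far above the 24 hpf levels. The mitotic cyclins ccnb1 and ccnb2 differed by -3.17 ± 0.19 (SE) and -4.78 ± 0.20 (SE), the mitotic kinase aurka by -2.66 ± 0.14 (SE), and fbxo5, which encodes the inhibitor Emi1 of the anaphase-promoting complex, by -3.34 ± 0.18 (SE). Unlike the egg genes these stayed well above the array median at 24 hpf, with ccnb1 at a mean of 7.88 and aurka at 7.31. In the opposite direction ccnd1, the cyclin D that starts the G1 phase of ordinary cycles, lay between -0.03 and 3.04 (median 2.57) at 1 hpf and between 9.03 and 9.32 (median 9.14) at 24 hpf. It was already at a mean of 9.26 at 7 hpf, and its difference was 7.00 ± 0.38 (SE) with an adjusted p of 1.73e-10. The kinase cdk1 rose by 1.53 ± 0.23 (SE).

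Genes that store, translate and remove maternal RNA went both ways, as did all genes. Of 41, 22 (53.7%) fell, 13 (31.7%) rose and 6 were not called, with a median of -0.74. Over all genes 41.4% were lower and 30.1% higher, with a median of -0.36. Among the falling ones, pabpc1l, the embryonic poly(A)-binding protein, lay between 8.09 and 8.92 (median 8.72) at 1 hpf and between 1.52 and 2.55 (median 1.91) at 24 hpf. Its ages were far apart, with a difference of -6.65 ± 0.19 (SE) and an adjusted p of 2.02e-13. The RNA granule gene lsm14b differed by -6.51 ± 0.30 (SE), and the cytoplasmic polyadenylation factors cpeb4a and cpeb1b by -5.14 ± 0.21 (SE) and -4.75 ± 0.24 (SE). pabpc4, another poly(A)-binding protein, moved the other way by 5.88 ± 0.23 (SE), and btg1, a relative of btg4, by 3.04 ± 0.21 (SE).

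Of 20 genes with a role in zygotic genome activation, 10 (50%) fell, 6 (30%) rose and 4 were not called, with a median of -0.51. These shares lie near those of all genes, 41.4% lower and 30.1% higher, whose median was -0.36. nanog lay between 9.45 and 10.53 (median 9.96) at 1 hpf and between 0.40 and 4.26 (median 1.58) at 24 hpf. No 24 hpf array reached a 1 hpf level, and the mean at 7 hpf was 9.13. The difference was -8.15 ± 0.47 (SE), adjusted p 3.71e-10. pou5f3 had a mean of 9.83 at 1 hpf, 9.68 at 7 hpf and 3.10 at 24 hpf, a difference of -6.72 ± 0.25 (SE). Sox19b is maternal and its close relative sox19a is zygotic, and the arrays separated them: sox19b differed by -2.06 ± 0.17 (SE) and sox19a by 6.97 ± 0.34 (SE). tbpl2, the TATA-binding protein relative of the oocyte, differed by -8.05 ± 0.45 (SE), while tbp itself differed by -3.31 ± 0.23 (SE) and kdm1a, a histone demethylase, by 1.50 ± 0.19 (SE).

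A stricter description was made without a test. A transcript was counted as off when all 6 arrays of 1 hpf were at 7 or above and all 6 of 24 hpf at 4 or below, and as on in the opposite case. There were 84 off probe sets, covering 68 named genes, and 245 on probe sets, covering 157. The median level of the off probe sets went from 8.31 at 1 hpf through 6.20 at 7 hpf to 1.20 at 24 hpf. At 7 hpf, 4 of the 84 were still at 7 or above on every array, 1 was at 4 or below on every array and 79 lay between. The named genes still at 7 or above were npm2b (the oocyte nucleoplasmin), pou5f3 and the egg coat gene zp2.6, and the gene at 4 or below was fhdc3. These genes were picked out by their levels, zp2.6 and fhdc3 after they had been seen. By the probe set that stands for a gene, 65 of all 8793 genes were off. They included 8 of the 24 genes of the egg coat list, 4 of 18 in the germ plasm list and 3 of 41 in the maternal RNA list. Leaving out replicate 2 of the mock LNA at 24 hpf gave 125 off probe sets, the same 84 and 41 more. Since every array must pass its limit, leaving out an array can only add members.

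The on probe sets reached their level at different times. Their median level was 1.65 at 1 hpf, 3.89 at 7 hpf and 8.27 at 24 hpf, with 26 of 245 already at 7 or above on every 7 hpf array, 110 still at 4 or below on every 7 hpf array and 109 between. The early 26 held the keratins krt4, krt5, krt97 and krt18a.1, the surface layer gene lye, the apolipoproteins apoeb and apoc1, the cyclin ccnd1 and the annexin anxa1a, of which krt5, krt97, lye and anxa1a were picked after their levels had been seen. krt4 had a mean of 2.35 at 1 hpf, 10.62 at 7 hpf and 10.89 at 24 hpf, and apoeb passed from 2.36 through a higher 11.01 to 8.60. Of the genes still low at 7 hpf, myl1, a myosin light chain, had means of -1.39, -0.93 and 9.97, and fabp7a, a fatty acid binding protein of radial glia, 2.42, 1.32 and 7.83. By representative probe set, 151 of all 8793 genes were on. They included 28 of the 41 genes of the muscle list, 13 of 35 in the collagen list, 12 of 36 in the epidermis list and 8 of 58 neural progenitor genes.

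Muscle had the highest median of the 30 lists. Of 41 genes of fast and slow skeletal muscle, 40 rose and 1 fell, with a median difference of 7.00 (4.68 with 16 added). actc1b, a sarcomeric actin, lay between 2.75 and 3.99 (median 3.44) at 1 hpf and between 11.99 and 12.21 (median 12.16) at 24 hpf. The 12 largest rises, actc1b among them, were also picked only from called genes whose ages do not overlap. The difference was 8.76 ± 0.18 (SE) with an adjusted p of 2.77e-14. Of 3 further actc1b probe sets, 1 rose by 8.61, and 2 with means under the array median at both ages were called lower, by 1.45 and 2.59. myhz1.3, a fast myosin heavy chain, rose by 11.55 ± 0.44 (SE) (6.21 with 16 added), the calcium buffer pvalb2 by 10.39 ± 0.25 (SE), the calcium pump atp2a1 by 8.16 ± 0.21 (SE), the troponin tnnc2.2 by 8.22 ± 0.19 (SE) and the creatine kinase ckmb by 7.68 ± 0.26 (SE). The exception was eno3, an enolase of muscle glycolysis, whose transcript was already at 9.59 in the egg and differed by -1.57 ± 0.16 (SE). Of 14 regulators of myogenesis, 9 rose and none fell, among them myog (4.39 ± 0.40 (SE)) and mef2ca (5.91 ± 0.36 (SE)). The remaining 5 were not called. Of 11 heart genes, 5 (45.5%) rose and 2 (18.2%) fell, against 30.1% higher and 41.4% lower over all genes. The cardiac light chains myl7 and cmlc1 rose by 6.18 ± 0.48 (SE) and 4.45 ± 0.60 (SE), while the cardiac transcription factors tbx20 and tbx5a fell by 4.38 and 2.08 on the log2 scale from levels under the array median.

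Epidermis came next, with 31 of 36 genes higher, 1 lower and a median of 5.27. krt4, a keratin of the outer layer, lay between 1.23 and 3.17 (median 2.47) at 1 hpf and between 10.59 and 11.32 (median 10.84) at 24 hpf. Its difference of 8.54 ± 0.25 (SE) had an adjusted p of 3.03e-13. icn and icn2, calcium-binding proteins of the S100 family, rose by 6.43 ± 0.18 (SE) and 6.72 ± 0.22 (SE), and evplb, an envoplakin, by 5.63 ± 0.22 (SE). epcam, an epithelial adhesion protein, was the exception: it was high in the egg at a mean of 10.37 and fell to 7.94. A second probe set for epcam was not called. Of 35 collagen and matrix genes, 32 rose and none fell, with a median of 4.27. The collagens col1a1a and col1a2 rose by 6.22 ± 0.18 (SE) and 6.89 ± 0.29 (SE), the matrix protein postnb by 5.83 ± 0.25 (SE), and serpinh1b, the collagen chaperone, by 9.32 ± 0.48 (SE).

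Neural genes rose as well. Of 58 neural progenitor genes, 47 rose, 5 fell and 1 was equal within 2-fold, with a median of 3.51. The proneural factors ascl1a and ascl1b rose by 4.89 ± 0.21 (SE) and 6.28 ± 0.24 (SE), and fabp7a by 5.41 ± 0.21 (SE). otx1 and pax2b fell by 2.68 and 1.61, a second pax2b probe set was not called, and otx1 was at a mean of 7.86 in the egg. pax2b had means under 4 at both ages, where a level may be background. Of 40 neuronal genes, 25 rose and 4 fell, with a median of 3.31. The growth cone protein gap43 lay between 2.09 and 3.09 (median 2.95) at 1 hpf and between 6.76 and 7.06 (median 6.92) at 24 hpf. It rose by 4.16 ± 0.21 (SE), adjusted p 9.62e-11. tmsb, a thymosin beta of neurons, rose by 8.48 ± 0.26 (SE), and stmn4, a stathmin, and inaa, an intermediate filament protein, fell by 1.80 and 2.54. The means of inaa were likewise under 4 at both ages. Of 42 hox genes, which set position along the body axis, 33 rose and none fell, with a median of 2.80. hoxb3a, expressed in hindbrain, lay between 0.34 and 2.81 (median 2.65) at 1 hpf and between 7.99 and 8.51 (median 8.29) at 24 hpf. Its 7 hpf mean of 4.56 lay between the ages, and its difference was 6.24 ± 0.39 (SE), adjusted p 8.17e-10. hoxc8a and hoxb8a of the trunk rose by 6.54 ± 0.46 (SE) and 5.32 ± 0.44 (SE), while 2 further probe sets of hoxc8a were not called. Of 2 further probe sets of hoxb8a, 1 rose by 5.33 and 1 was not called.

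The neural crest and pigment list had 16 of 22 genes higher and 2 lower, with a median of 2.61. crestin, a pan-crest transcript of zebrafish, rose by 8.51 ± 0.38 (SE), gch2 of pteridine pigment by 6.86 ± 0.32 (SE) and dct of melanin synthesis by 4.05 ± 0.19 (SE). tyr, the melanin enzyme that acts first, fell by 2.06 at levels under the array median, and snai1b fell by 1.21 with an adjusted p of 0.0482 that 15 of 20 alternative settings took past 0.05. Of 27 erythroid and heme genes, 15 rose and 5 fell, with a median of 1.48. The embryonic globins rose most: hbbe3 differed by 9.16 ± 0.29 (SE) and hbae3 by 7.94 ± 0.32 (SE). hbae3 lay between 1 and 3.17 (median 2.50) at 1 hpf and between 9.54 and 10.58 (median 10.31) at 24 hpf. The anion exchanger slc4a1a of red cells rose by 6.23 ± 0.38 (SE), while slc25a37, the mitochondrial iron importer, and uros, an enzyme of heme synthesis, fell by 3.50 and 2.17. Of 41 genes of the yolk syncytial layer and liver, 25 rose and 8 fell, with a median of 2.70. The apolipoproteins apoa1a and apoc1 rose by 7.11 ± 0.43 (SE) and 7.02 ± 0.34 (SE). The lysosomal proteases ctsba and lgmn fell, by 2.94 and 1.46.

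Several further lists had lower medians, and their counts are read beside 30.1% higher and 41.4% lower over all genes. Of 19 eye and lens genes, 9 rose and 1 fell, with the lens crystallins crybb1 and cryba4 at 5.64 ± 0.35 (SE) and 5.83 ± 0.46 (SE) and the alpha crystallin cryaa at -1.95 ± 0.50 (SE). cryaa had means under 4 at both ages, and its call was lost with the anti-mir-34 arrays alone (limma adjusted p 0.0575). Of 10 endothelial genes, 6 rose and none fell, kdrl, the receptor of vascular growth factor, by 3.59 ± 0.49 (SE). The median difference of 17 leukocyte genes was 0.35, with 6 higher and 2 lower, and it was 0.00 without replicate 3 of the mock LNA at 24 hpf. The macrophage factor spi1b fell by 2.02 and the progenitor factor myb rose by 3.02 ± 0.41 (SE), both at low levels. The spi1b call was lost with the anti-mir-34 arrays alone (limma adjusted p 0.0746), and a second spi1b probe set was not called. Of 8 hatching gland genes, 4 rose and 2 fell, with cd63 at 4.42 ± 0.18 (SE), agr2 at 3.89 ± 0.30 (SE) and xbp1, a factor of secretory cells that was abundant in the egg, at -1.70 ± 0.17 (SE). Of 43 genes known for transient expression in the gastrula, 14 were higher and 9 lower at 24 hpf, with a median of 0.06 that turned to -0.01 with 16 added. Some had a higher mean at 7 hpf than at either age compared. foxa2 had means of 0.77, 6.43 and 4.59 at 1, 7 and 24 hpf, and bmp2b of 2.35, 6.56 and 4.75. tdgf1, the maternal Nodal coreceptor, differed by -3.77 ± 0.30 (SE).

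**Figure D3:**
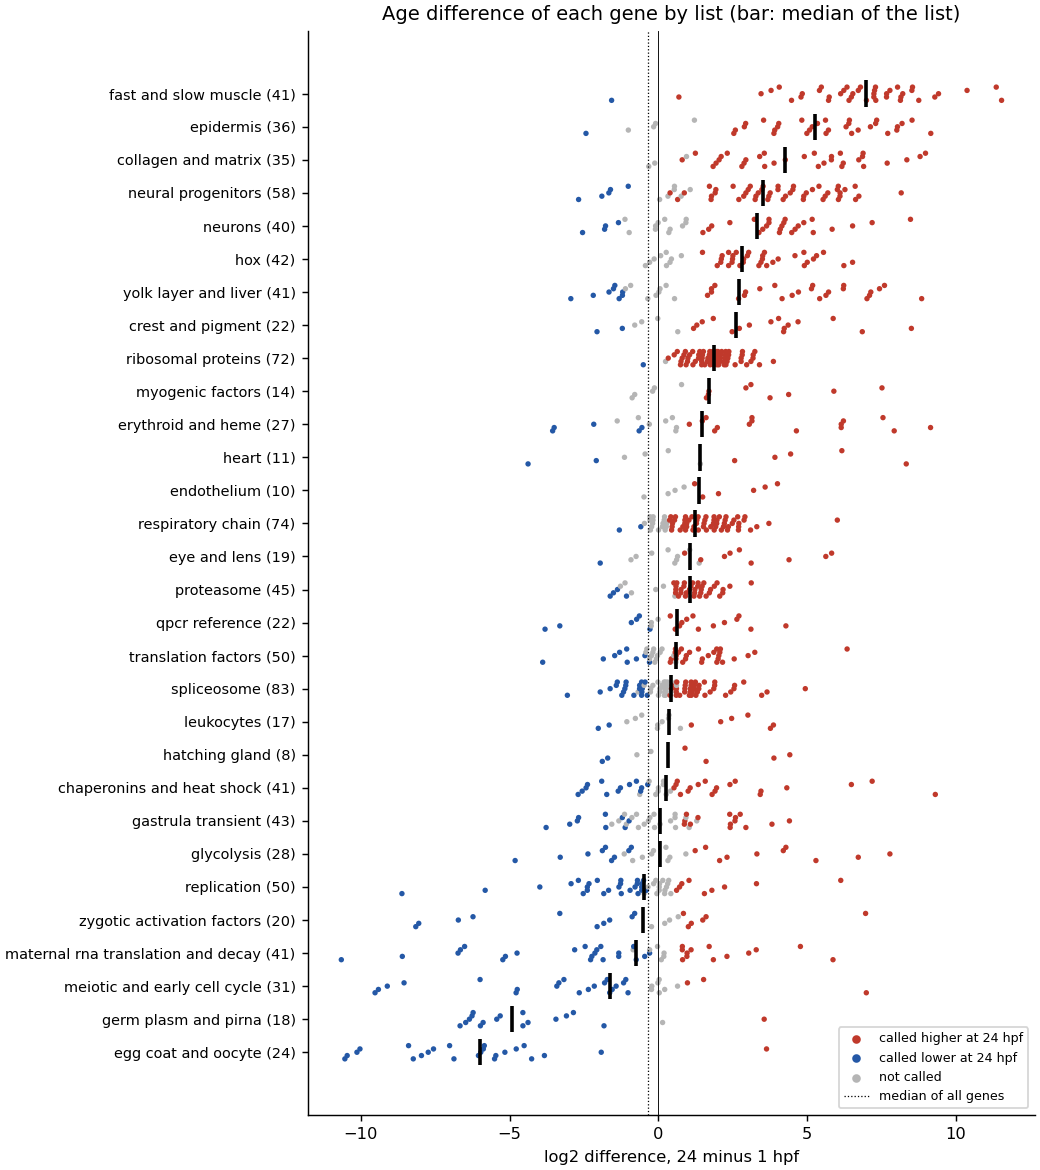
Difference between 24 and 1 hpf (x axis, log2) of each measured gene in 30 gene lists (y axis, number of genes in brackets), red for genes called higher, blue for genes called lower and grey for genes not called, with the list median as a bar. Egg coat and germ plasm genes lie at the lower end and muscle and epidermis genes at the upper end, while ribosomal proteins form a narrow group with a median of 1.86.

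Genes of the basic machinery of cells also differed, with smaller medians. Of 72 ribosomal protein genes, 70 rose, 1 fell and 1 was not called, with a median of 1.86, and the array medians were 8.56 to 9.14 at 1 hpf and 10.72 to 10.77 at 24 hpf. rpl5a of the large subunit lay between 6.73 and 7.40 (median 7.15) at 1 hpf and between 10.25 and 10.46 (median 10.33) at 24 hpf. The difference of 3.19 ± 0.12 (SE) had an adjusted p of 5.37e-12. rps6 and rpl26 rose by 3.19 ± 0.16 (SE) and 2.79 ± 0.15 (SE). The list's fall was rpl7l1, a relative of a ribosomal protein, at -0.50 ± 0.20 (SE) with an adjusted p of 0.0371, a call that 13 of 21 alternative settings removed. In this list 3 genes were equal within 2-fold, rpl12 and rpl23 among them. rpl12 was not called, while rpl23 was called higher though within the bound, a call lost when centred on the hybridization controls.

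Other large complexes moved in the same direction less uniformly. Over all genes 30.1% were higher and 41.4% lower. Of 74 respiratory chain genes, 56 rose and 2 fell, with a median of 1.24 and 19 equal within 2-fold. ndufa6 of complex I rose by 3.72 ± 0.21 (SE) and atp5mf of the ATP synthase by 3.10 ± 0.20 (SE), while the ATP synthase genes atp5mc1 and atp5f1c fell by 1.31 and 0.59. atp5f1c was also among the 19 equal within 2-fold, and centred on the hybridization controls it was not called (adjusted p 0.475). Of 45 proteasome genes, 35 rose and 4 fell, with a median of 1.05. psmb6, a catalytic subunit, rose by 3.13 ± 0.17 (SE), and psme3, an activator, and psmd10, an assembly factor, fell by 1.07 and 1.51. Of 83 spliceosome genes, 40 (48.2%) rose and 19 (22.9%) fell, with a median of 0.43. The splicing regulators hnrnpa0a (4.95 ± 0.16 (SE)), ptbp1a (3.66 ± 0.20 (SE)) and srsf1a (3.48 ± 0.16 (SE)) rose, and lsm1, which is a decapping cofactor, and the snRNP protein prpf4 fell by 3.06 and 1.95. Of 50 translation factors, 28 (56%) rose and 9 (18%) fell. The initiation factor subunit eif3f differed by 3.02 ± 0.18 (SE) and eif2s1a by -1.46 ± 0.16 (SE).

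Of 50 replication genes, 26 (52%) fell, 9 (18%) rose and 8 were equal within 2-fold, with a median of -0.48, against 41.4% lower, 30.1% higher and a median of -0.36 over all genes. The licensing factor cdt1 differed by -2.93 ± 0.20 (SE), the helicase cofactor cdc45 by -2.52 ± 0.16 (SE), the GINS complex subunit gins3 by -2.39 ± 0.16 (SE) and the histone chaperone nasp by -2.38 ± 0.13 (SE). mcm3, a subunit of the replicative helicase, was the one of the 9 with the largest difference: it lay between -0.14 and 2.75 (median 2.19) at 1 hpf and between 7.41 and 8.01 (median 7.87) at 24 hpf. It was at 7.56 at 7 hpf, and its difference was 6.14 ± 0.40 (SE), adjusted p 1.50e-09. Of 28 glycolysis genes, 10 (35.7%) rose, 9 (32.1%) fell and 9 were not called, with a median of 0.05 whose sign changed under 4 of the alternative settings. Muscle forms rose, aldoab by 7.79 ± 0.24 (SE) and pgam2 by 6.73 ± 0.39 (SE), whereas the triose phosphate isomerase tpi1a differed by -4.81 ± 0.23 (SE). The hexokinases differed in opposite directions, with hk2 at -2.36 ± 0.23 (SE) and hk1 at 5.30 ± 0.23 (SE), and of 2 further hk1 probe sets, 1 rose by 5.93 and 1 with means near 0 was not called. Of 41 chaperone genes, 19 (46.3%) rose and 13 (31.7%) fell. The muscle chaperone hsp90aa1.1 rose by 6.49 ± 0.29 (SE) and the small heat shock gene hspb8 by 7.19 ± 0.42 (SE), while the endoplasmic reticulum chaperone hspa5 fell by 2.38. hspb1 had a mean of 10.69 at 7 hpf, against 3.89 at 1 hpf and 7.32 at 24 hpf.

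What stayed equal was asked with a test of equality, since a difference that misses a threshold shows no equality. A gene was called equal when 2 one-sided limma tests placed its difference between -1 and 1, a 2-fold difference either way, at an adjusted p under 0.05, with a mean level of at least 7 at both ages. Of 698 genes with a mean of at least 7 at both ages, 267 (38.3%) were equal, 262 were called higher, 211 called lower and 31 neither called nor equal, where 73 genes were both called and equal. Among the 267, 145 differed by less than 0.25, and the largest difference was -0.62. The class depends on the scaling and the bound: centring on the hybridization controls, whose array means ranged from 6.33 to 8.03, or bounds of 0.5 left none.

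The highest levels in the equal class belonged to the translation elongation factor eef1a1l1, the ribosomal proteins rpl12 and rpl23, the cyclophilin ppiaa, the constitutive chaperones hspa8 and hsp90ab1, and the replication clamp pcna. hspa8 lay between 10.19 and 11.10 (median 10.54) at 1 hpf and between 10.25 and 11.03 (median 10.53) at 24 hpf. The ages overlapped almost wholly, and the difference was 0.00 with a 95% confidence interval of -0.34 to 0.33. pcna lay between 10.43 and 10.96 (median 10.67) at 1 hpf and between 10.17 and 10.31 (median 10.20) at 24 hpf. Its difference of -0.49 ± 0.12 (SE) was called lower (adjusted p 0.00141) though within the bound, beside a median of -0.48 over the replication list. actb2, a cytoplasmic actin, lay between 10.25 and 10.71 (median 10.43) at 1 hpf and between 9.96 and 10.27 (median 10.21) at 24 hpf. The difference was -0.28 ± 0.12 (SE) at an adjusted p of 0.0451, which 14 of 21 alternative settings moved past 0.05. The smallest differences were those of smarcd1, a chromatin remodelling subunit, kgd4, kansl2, tmem50a, copb1 of the vesicle coat, the cochaperone fkbp4 and hnrnpub, each within 0.01 of 0. For hnrnpub 2 further probe sets were called lower. Of the 267, 79 were members of a list. Among genes with a mean of at least 7 at both ages, 19 of 31 in the respiratory chain and 14 of 38 in the spliceosome were equal. Over all genes at that level the share was 38.3%, so the spliceosome did not stand out.

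Equal at both ages did not mean level in between. The 7 hpf mean lay more than 1 above both ages for 10 equal genes and more than 1 below both for 13. These genes were picked out after their values were seen. Nucleolin, ncl, had means of 9.34, 10.36 and 9.20 at 1, 7 and 24 hpf, and the RNA-binding gene khdrbs1a of 9.52, 10.73 and 9.72. The dips held respiratory genes, with ndufb5 at 8.11, 6.58 and 7.94 and sdhc at 7.25, 6.13 and 7.67, and the glycolytic enzyme pgk1 at 7.47, 6.23 and 7.31.

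Genes that laboratories use as references for quantitative PCR were examined one by one, since such a comparison across ages needs a stable gene. Of 22 measured, 4 were equal within 2-fold (eef1a1l1, tmem50a, ppiaa and actb2), and by the test of a difference 13 were called higher, 6 lower and 3 were not called. eef1a1l1 differed by 0.41 ± 0.13 (SE), adjusted p 0.0106. After quantile normalization its difference was 0.08 with an adjusted p of 0.527. A second probe set for ppiaa rose by 1.92. Others differed by more than 2-fold. rplp0 lay between 8.18 and 10.28 (median 8.48) at 1 hpf and between 11.65 and 12.12 (median 11.82) at 24 hpf. The difference was 3.12 ± 0.28 (SE) with an adjusted p of 5.14e-08. tuba1b, ppiab and rpl13a rose by 2.71 ± 0.24 (SE), 2.64 ± 0.25 (SE) and 2.23 ± 0.18 (SE). hprt1, the purine salvage enzyme, lay between 6.51 and 7.58 (median 7.10) at 1 hpf and between 2.42 and 3.86 (median 3.29) at 24 hpf. It was lower on every 24 hpf array and differed by -3.81 ± 0.26 (SE), adjusted p 2.02e-09, and tbp by -3.31 ± 0.23 (SE). b2m was not called but lay between 0.69 and 2.90 at both ages, too low to be read as stable.

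**Figure D4:**
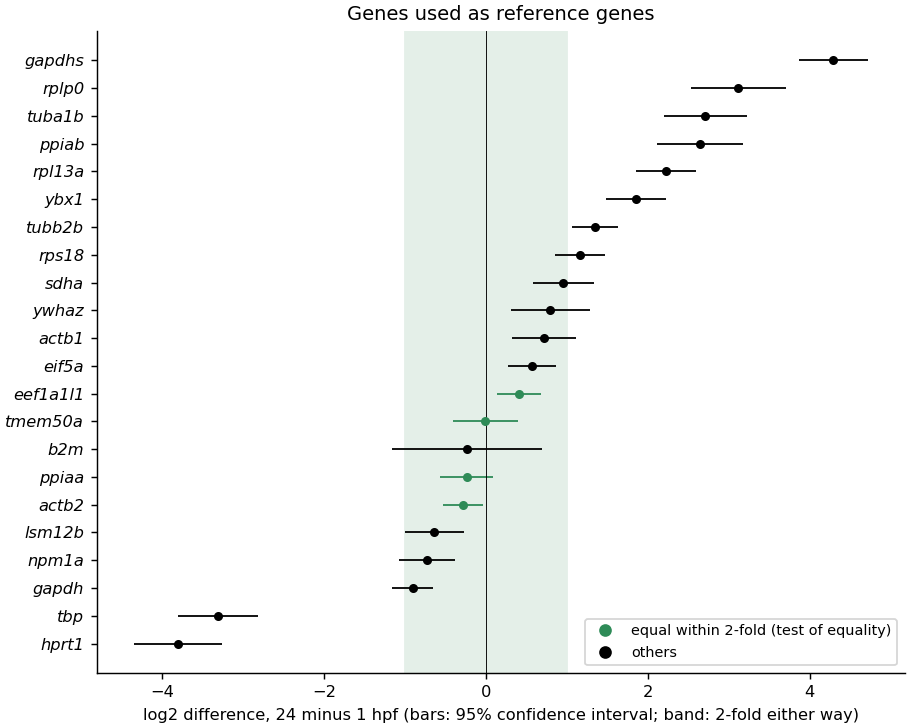
Difference between 24 and 1 hpf (x axis, log2, with the 95% confidence interval) of 22 reference genes (y axis), with the band of 2-fold either way shaded. The 4 green genes passed the test of equality, and the outermost are hprt1 at -3.81 and gapdhs at 4.29.

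Related genes were set side by side to see which member belonged to which age, comparing differences and not levels. The first member of a pair is the one written down as the oocyte or maternal form, with earlier results of these data known. Both members were measured in 27 of 39 pairs. In 12 the first was lower and the second higher at 24 hpf, in 8 both were lower, in 2 both were higher, in 1 the first was higher and the second lower, and in 4 at least 1 member was not called. The pairs share 51 distinct genes, so they are not independent. In the claudin pair cldnd differed by -10.03 ± 0.93 (SE) and cldnb by 6.32 ± 0.31 (SE). In the helicase subunit pair mcm6l differed by -5.82 ± 0.43 (SE) and mcm6, with means under 4 at both ages, by 3.30 ± 0.57 (SE). In the cap-binding pair eif4e1b differed by -5.23 ± 0.40 (SE) and eif4ea by 0.97 ± 0.26 (SE). Of the poly(A)-binding proteins, pabpc1l fell while pabpc1b rose by 3.30 ± 0.26 (SE) and pabpc1a, at -0.29 ± 0.11 (SE), stayed within 2-fold, although its 2 other probe sets rose. Of the growth factors, bmp15 of the oocyte differed by -8.40 ± 0.50 (SE) and bmp2b by 2.40 ± 0.26 (SE). The neural factors sox2 and sox3 rose by 6.11 ± 0.34 (SE) and 6.75 ± 0.63 (SE) against the fall of sox19b (1 of 2 further sox2 probe sets was not called), and pou3f1 by 6.97 ± 0.63 (SE) against that of pou5f3. The cadherin of epithelia, cdh1, differed by only -0.69 ± 0.24 (SE), a call that 4 of 21 settings removed, while the neural cadherin cdh2 rose by 5.24 ± 0.14 (SE).

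In all 8 pairs that fell together, the 95% confidence interval of the first member lay wholly below that of the second. Since the first member was the one written down as maternal, this order was partly set in advance. The oocyte form npm2b differed by -5.88 ± 0.32 (SE) and npm1a by -0.73 ± 0.16 (SE). Of the 2 proteins that bind the stem loop of histone messenger RNA, slbp2 differed by -8.62 ± 0.62 (SE) and slbp by -1.32 ± 0.12 (SE). In the Pat1 family patl2 differed by -8.61 ± 0.48 (SE) and patl1 by -0.83 ± 0.16 (SE). ccna2 differed by -1.80 ± 0.15 (SE), against -9.52 for ccna1. Among the glycolytic dehydrogenases gapdhs rose and gapdh fell, by -0.90 ± 0.12 (SE). The count of 12 was 8 with the anti-mir-34 arrays alone and 9 with the mock arrays alone or centred on the hybridization controls, and leaving out 1 array gave 10 to 12. The weak members were tubb4b (-0.33 ± 0.13 (SE), called lower but within 2-fold) and mycb (-0.58 ± 0.24 (SE)), whose calls were lost under 11 and 12 of 21 settings.

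**Figure D5:**
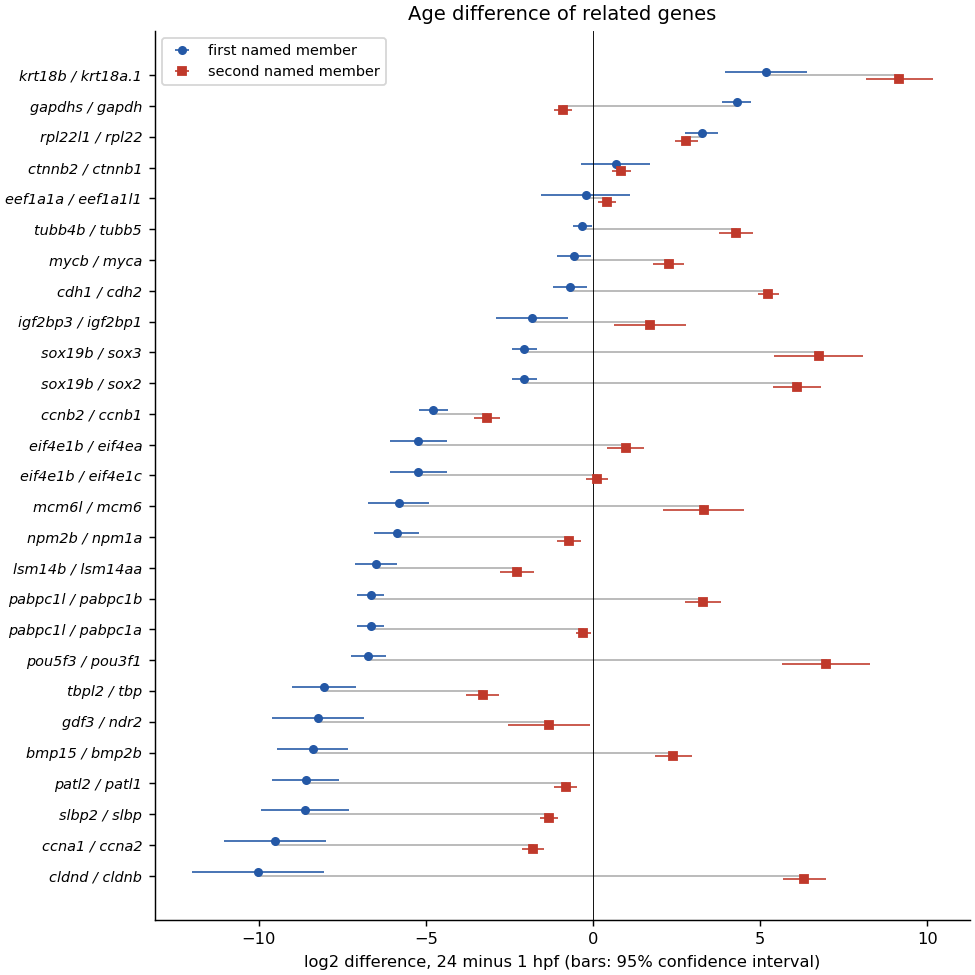
Difference between 24 and 1 hpf (x axis, log2, with the 95% confidence interval) of both members of 27 pairs of related genes (y axis), the first named member as a circle and the second as a square. The first named member is the one written down as the oocyte or maternal form. In 12 pairs the first member was called lower and the second called higher at 24 hpf.

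No dependence of the age difference on the injection passed the test. No probe set was called for an injection-by-age interaction (0 of 15502, 0%), with a smallest adjusted p of 0.178 and 1101 probe sets at an unadjusted p under 0.05, where 775 would be expected with no interaction. Of the 10293 probe sets called for age, 10276 had the same sign in both injections. They were called on the difference over both injections together, which makes a shared sign likely, so this count does not test the dependence. The smallest interaction p belonged to ddx21, a nucleolar helicase, which differed by -0.51 in the mock and 1.26 in the anti-mir-34 embryos (interaction adjusted p 0.178). Leaving out replicate 2 of the anti-mir-34 LNA at 1 hpf gave 75 calls, and leaving out any other array gave 0.

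Most genes with several probe sets did not have calls in both directions. Of 1539 such genes, 108 (7.02%) had probe sets called in both directions. The 1539 were not limited to genes with several called probe sets, so the share among genes that could show both directions may be higher. In 1 gene, cldng, probe sets rose and fell by more than 4-fold with a mean of at least 7 at either age. Its brightest probe set over the 12 arrays had means of 11.04 at 1 hpf and 2.16 at 24 hpf, a difference of -8.88 ± 0.69 (SE), and its 3 others rose by 5.99 to 7.12, to means of 8.58 to 9.79 at 24 hpf. The platform annotation gives all 4 the same symbol, and whether they read the same transcript was not tested.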

How the data were processed

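RNA of whole zebrafish embryos was hybridised to Affymetrix arrays. The deposited values, 1 per probe set and array, are on a log2 scale, read from the values, whose lowest is the log2 of a signal of 0.1. Per the submitters' processing notes, GCOS was used. The sources used here give no version and do not say how probes were summarised or how background and arrays were adjusted. Arrays have no read depth, and their number limits the precision. On the 12 arrays 88 values were missing and stayed missing.

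Of 15502 probe sets that are not controls, 10795 had 1 symbol in the platform annotation, 135 several and 4572 none. Symbols were checked against RefSeq's gene table of GRCz12tu (10711 matched, 1 updated), and the brightest probe set over the 12 arrays stood for a gene.

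limma 3.58.1 in R 4.3.3 was fitted to the 12 arrays (injection and age, 9 residual degrees of freedom, eBayes with an intensity trend), with a two-sided test, Benjamini-Hochberg adjustment and a threshold of 0.05. The procedure was tested on simulated data with independent normal noise, where far fewer probe sets changed than were called here. That simulation does not test the scaling of the arrays. Differences are 24 minus 1 hpf. Counts of genes and medians describe the lists, without set tests.

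The gene lists, pairs, limits and tests were chosen with earlier results of these data known. Named genes are the 12 largest differences each way after adding 16 to the signals, among called genes whose ages do not overlap. Also named are up to 4 and 2 called genes per list by p and the 12 brightest and 8 most equal genes of the equal class. Reference genes, pairs and 6 genes by interaction p complete them. Others named are said to be chosen after their values were seen. Replicate numbers were not used to pair the arrays, since no label says what a number shares. Deviations from the group mean were correlated between same-numbered arrays of different groups. Of these 18 correlations, which ranged from -0.07 to 0.14, 1 was over 0.1, and whether arrays were paired is not known. No sequences are shown and promoters were not described, since no sequence table was used here.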

Additional observations from a re-analysis of the deposited data

Results flagged for a closer look

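Within the 6 arrays of an age, the highest or lowest level of a named gene or list lay apart from the other 5 by more than Dixon's 95% critical ratio in 36 of 542 groups (6.64%), where chance gives about 1 in 20. Replicate 2 of the mock LNA at 24 hpf held 8 of them as the highest array, all in probe sets that were lower at 24 than at 1 hpf. They were h1m at 5.62, btg4 at 5.31, zar1l at 3.97, map1lc3c at 6.19, cldng at 6.59, zp3.1 at 5.89, org at 5.71 and lsm14b at 3.89. For cldng this is the 1 probe set that fell, while its 3 others rose. The same array was the lowest for tyr at -0.80 and mycb at 3.87. Replicate 3 of the anti-mir-34 LNA at 24 hpf was lowest for both globins, hbbe3 at 8.48 and hbae3 at 9.54, and for the cardiac light chain cmlc1 at 3.24. Other 24 hpf arrays stood apart for tbpl2 at 0.55, tbx20 at -0.29, tgfbi at 8.10, mcm3 at 7.41 and mcm6 at 1.10.

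At 1 hpf, replicate 2 of the mock LNA was lowest for fbxo5 at 9.65, ccnd1 at -0.034, cryba4 at -0.73, apoeb at 0.88, hsp90aa1.1 at 0.70 and eif5a at 8.68. Replicate 1 of the anti-mir-34 LNA was lowest for kdrl at -1.16, ptbp1a at 3.17 and sox3 at -1.65 and highest for psmb6 at 6.18 and rplp0 at 10.28. The remaining 1 hpf arrays stood apart for bhmt at -1.16, ckmb at 1.26, fetub at 2.62, pdia2 at -2.17, rps18 at 10.41, mcm6 at 2.34 and patl1 at 8.52. None of these was tested further, and most low values lie where background and signal are not told apart.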

How the results depend on the processing

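All 42 recounts of the calls higher and lower stayed within 1.5 times the values given. Leaving out 1 array gave 4581 to 4727 higher and 5343 to 5516 lower. The replicate block, which paired arrays by number, gave 4756 and 5570. Centring on the hybridization controls gave 4652 and 3872, which reversed the majority: 54.6% of the calls were higher, against 46.1% on the deposited scale. The equal class of 302 probe sets held 191 without an intensity trend, 0 with the mock arrays alone, with the anti-mir-34 arrays alone, centred on the hybridization controls or with bounds of 0.5, 1071 without a level minimum and 900 with a minimum of 5, and 255 to 329 leaving out 1 array. Fewer arrays widen the interval that must lie within the bound, and the other causes were not tested. The interaction gave 1 call without an intensity trend and 0 to 75 leaving out 1 array. Limits of 6 and 5 in place of 7 and 4 gave 638 on and 386 off probe sets, and limits of 8 and 3 gave 78 and 15. Leaving out 1 array gave 246 to 258 and 85 to 125, where by definition these counts could not fall. Lists with more genes higher than lower numbered 23 to 24 of 30 throughout. Of the named age differences under the alternatives, 138 of 5359 lost the call, 21 gained it and none reversed while called, and of the equalities 60 of 399 were lost. The settings for the pairs, most list settings and the interaction centred on controls were chosen after seeing the data. Levels near background have no detection call, which limits the size of differences there, and the promoter description was not run.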

Other observations

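Genes of the off and on classes that belong to no list were looked at after their values had been seen, with limma's adjusted p and the SE of 6 arrays per age. 42sp43, an oocyte RNA storage protein known from Xenopus, had mean log2 levels of 7.67 at 1 hpf, 6.18 at 7 hpf and 0.06 at 24 hpf, a difference of -7.61 ± 0.46 (SE, adjusted p 6.33e-10). kpna7, an importin alpha of the oocyte in mammals, had 8.17, 4.49 and 0.43, a difference of -7.74 ± 0.49 (SE). cyp11a1.1, a steroid side-chain cleavage enzyme gene, had 7.91, 6.73 and 0.55, a difference of -7.36 ± 0.46 (SE). bokb, of the Bcl-2 family, had 8.03, 5.39 and 1.37.

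Among the on genes, the growth factor mdka, a midkine, had mean levels of 1.73 at 1 hpf, 2.26 at 7 hpf and 8.42 at 24 hpf, and its relative mdkb had 2.28, 5.86 and 7.98. vim, the intermediate filament vimentin, had 2.38, 2.00 and 7.94, a difference of 5.55 ± 0.31 (SE, adjusted p 2.12e-10). gamt, an enzyme of creatine synthesis, had 2.10, 3.89 and 8.95. The growth factor receptor fgfr4 had 2.56 at 1 hpf and 8.21 at 7 hpf, and stood at 7.83 at 24 hpf. meis1b, a cofactor of Hox proteins, had 1.03, 4.55 and 8.03, a difference of 7.00 ± 0.45 (SE, adjusted p 1.21e-09).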
